A study of Mus musculus with 18 samples.

Results

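The EphB-ephrin B family comprised 8 of the 53715 genes in the count table, 5 receptors (*Ephb1*, *Ephb2*, *Ephb3*, *Ephb4* and *Ephb6*) and 3 ligands (*Efnb1*, *Efnb2* and *Efnb3*). The members were taken by gene symbol, and the family was chosen by the reads of *Ephb2* in metaphase II (MII) oocytes, which were present in the *in vitro* libraries and absent from the *in vivo* libraries. The *Ephb2* values in MII oocytes are therefore given as a description, without a test.

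The study compared mouse oocytes that developed *in vivo* with oocytes that developed *in vitro*, all from C57Bl/6j x CBA/J animals with no genetic change named, in 6 groups of 3 RNA-seq libraries. Laser-capture microdissection (LCM), which cuts chosen cells from a section with a laser, gave the oocytes of primordial and primary follicles, from ovaries of 14-day-old mice (*in vivo* group) or from ovaries taken at 7 days of age and cultured for 7 days (*in vitro* group). MII oocytes were pooled at 10 per tube, either from hormone-stimulated adult mice (*in vivo* group) or from cultured ovaries of 7-day-old mice whose follicles were then grown for 12 days and induced with hCG (*in vitro* group). Media of ovary and follicle culture contained serum and recombinant FSH, and the adult donors were injected with HMG and then hCG. Donor age, hormone treatment and culture therefore cannot be told apart in the MII comparison. LCM and MII libraries were prepared with different kits. LCM oocytes were also cut from stained sections of ovaries that had been fixed in paraformaldehyde and embedded in paraffin. Stage and preparation therefore cannot be told apart between LCM and MII libraries, and no test compared them. RNA of LCM oocytes was pooled over caps, and nothing in the labels ties a library to separate animals, so p-values measure the spread between these libraries.

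EphB receptors are receptor tyrosine kinases of the plasma membrane, and ephrin B ligands are transmembrane proteins on the neighbouring cell. When both cells touch, signals run forward into the cell with the receptor and in reverse into the cell with the ligand, changing the actin cytoskeleton, adhesion and repulsion. The family is best known for guiding axons, keeping tissue boundaries and, through Ephb4 and Efnb2, separating arteries from veins.

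The 12 LCM libraries held 15149564 to 29205503 counts each and the 6 MII libraries 7334817 to 9978830. More than 3 reads were found for 4842 to 11710 genes per LCM library and for 13238 to 15488 genes per MII library. The floor of 3 reads was worth 0.0930 to 0.216 CPM (read counts scaled to library size by the TMM method) in LCM libraries and 0.284 to 0.360 CPM in MII libraries, and it covers counting error only. Of 14 oocyte markers, 10 to 14 exceeded the floor in every LCM library and 12 or 13 in every MII library. LCM libraries also held reads of other ovarian cells. *Foxl2*, a transcription factor of granulosa cells, had 0 to 17852 reads in them, and *Col1a1*, a collagen of stromal cells, had 8266 to 466458. In MII libraries, *Foxl2* had 0 reads in all 6 and *Col1a1* had 0 to 7 reads, but other markers on these lists were present in all 6, with 334 to 1039 reads of *Cyp19a1* (aromatase, on the granulosa or cumulus list) and 654 to 2105 of *Pecam1* (on the endothelium list).

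*Ephb2* lies on chromosome 4 (chr4:136647539-136835988, minus strand, GRCm38) and no other annotated gene overlaps it. In MII oocytes of the *in vitro* group it had 92, 66 and 87 reads, and in those of the *in vivo* group it had 0, 0 and 0. All *in vitro* libraries were thus above all *in vivo* libraries. The mean level was 8.89 ± 2.34 CPM (SD, n = 3) *in vitro*, at least 25.9-fold higher than the floor of 3 reads per library *in vivo*. In length-corrected units the *in vitro* level was low, at 1.78 ± 0.32 TPM (transcripts scaled by gene length and library size; SD, n = 3). The difference may lie in fewer oocytes with the transcript or in less RNA per oocyte, which cannot be told apart in pools.

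The same pattern, over 3 reads in every *in vitro* and 0 reads in every *in vivo* MII library, was found for 125 of 17144 genes tested (0.729%), and the opposite pattern for 19 genes (0.111%). *Ephb2* ranked 6 among the 125 by mean CPM, and their median was 1.58 CPM. CPM is not corrected for gene length, and the annotated exons of *Ephb2* cover 12608 bases, so this is no order of transcript levels. The rank also rests on the reads that chose the family. The pattern did not extend to the other stages, since 44 genes had reads over the floor in all MII *in vitro* libraries and 0 reads in the other 15 libraries, and *Ephb2* was not one of them. Markers of granulosa or cumulus cells, which surround the oocyte, were counted beside it. Of 15 such markers, 3 to 5 exceeded the floor per *in vivo* library and 5 to 8 per *in vitro* library, with summed levels of 68.3 to 157 CPM and 73.8 to 110 CPM. *Inhba*, an inhibin and activin subunit, had 0 reads in all MII *in vivo* libraries and 23, 15 and 51 reads *in vitro*. *Inha*, another inhibin subunit, had 0 reads in all *in vivo* libraries and 14, 14 and 0 *in vitro*, and *Fshr*, the FSH receptor, had 0, 0 and 23 reads *in vivo* and 11, 47 and 20 *in vitro*. *Cyp19a1*, *Nr5a2* and *Kitl* exceeded the floor in all 6 MII libraries, and their groups overlapped. *Cyp19a1* had 1039, 350 and 479 reads *in vivo* and 334, 655 and 611 *in vitro* (log2 fold change -0.35, SE 0.44). *Kitl* had 167, 27 and 47 against 81, 52 and 67 (-0.36, SE 0.72), and *Nr5a2* had 82, 192 and 118 against 129, 155 and 233 (0.31, SE 0.51). *Foxl2* and *Amhr2* had 0 reads in all 6. The part of these cells in the *Ephb2* values was not tested.

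In LCM oocytes *Ephb2* exceeded 3 reads in 8 of 12 libraries. It had 97, 1148 and 1836 reads in primordial oocytes *in vivo* and 0, 739 and 0 *in vitro*. In primary oocytes it had 0, 2341 and 0 reads *in vivo* and 1514, 900 and 187 *in vitro*. The groups overlapped at both stages, and libraries of the same group ranged from no reads to 2341. Mean levels in primordial oocytes were 47.5 ± 46.0 CPM *in vivo* and 9.11 ± 15.8 CPM *in vitro* (SD, n = 3 each). The log2 fold change of *in vitro* against *in vivo* was -2.38 (SE 3.09, adjusted p = 0.850, edgeR quasi-likelihood test, Benjamini-Hochberg). Without *in vitro* library 2, which held every *in vitro* read, the fitted value was -13.08, and such a value against a group without reads depends on the fit and is no measure of size.

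In primary oocytes the mean *Ephb2* level was 31.3 ± 54.3 CPM *in vivo* and 31.3 ± 22.7 CPM *in vitro* (SD, n = 3 each), and the log2 fold change was -0.0016 (SE 2.94, adjusted p = 1). This value rested on *in vivo* library 2, which held every *in vivo* read, and it was 12.49 without that library. Primary against primordial oocytes gave -0.60 *in vivo* (SE 2.95, adjusted p = 1) and 1.78 *in vitro* (SE 3.03, adjusted p = 0.984). The culture effect at the primary stage minus that at the primordial stage was 2.38 (SE 4.21, adjusted p = 1). The stage value *in vitro* was 12.48 without primordial library 2, and that *in vivo* was -13.09 without primary library 2. The difference between culture effects was 13.08 and 14.87 without these libraries in turn. Each again left a group without reads. None of these differences exceeded the spread between libraries.

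**Figure D1:**
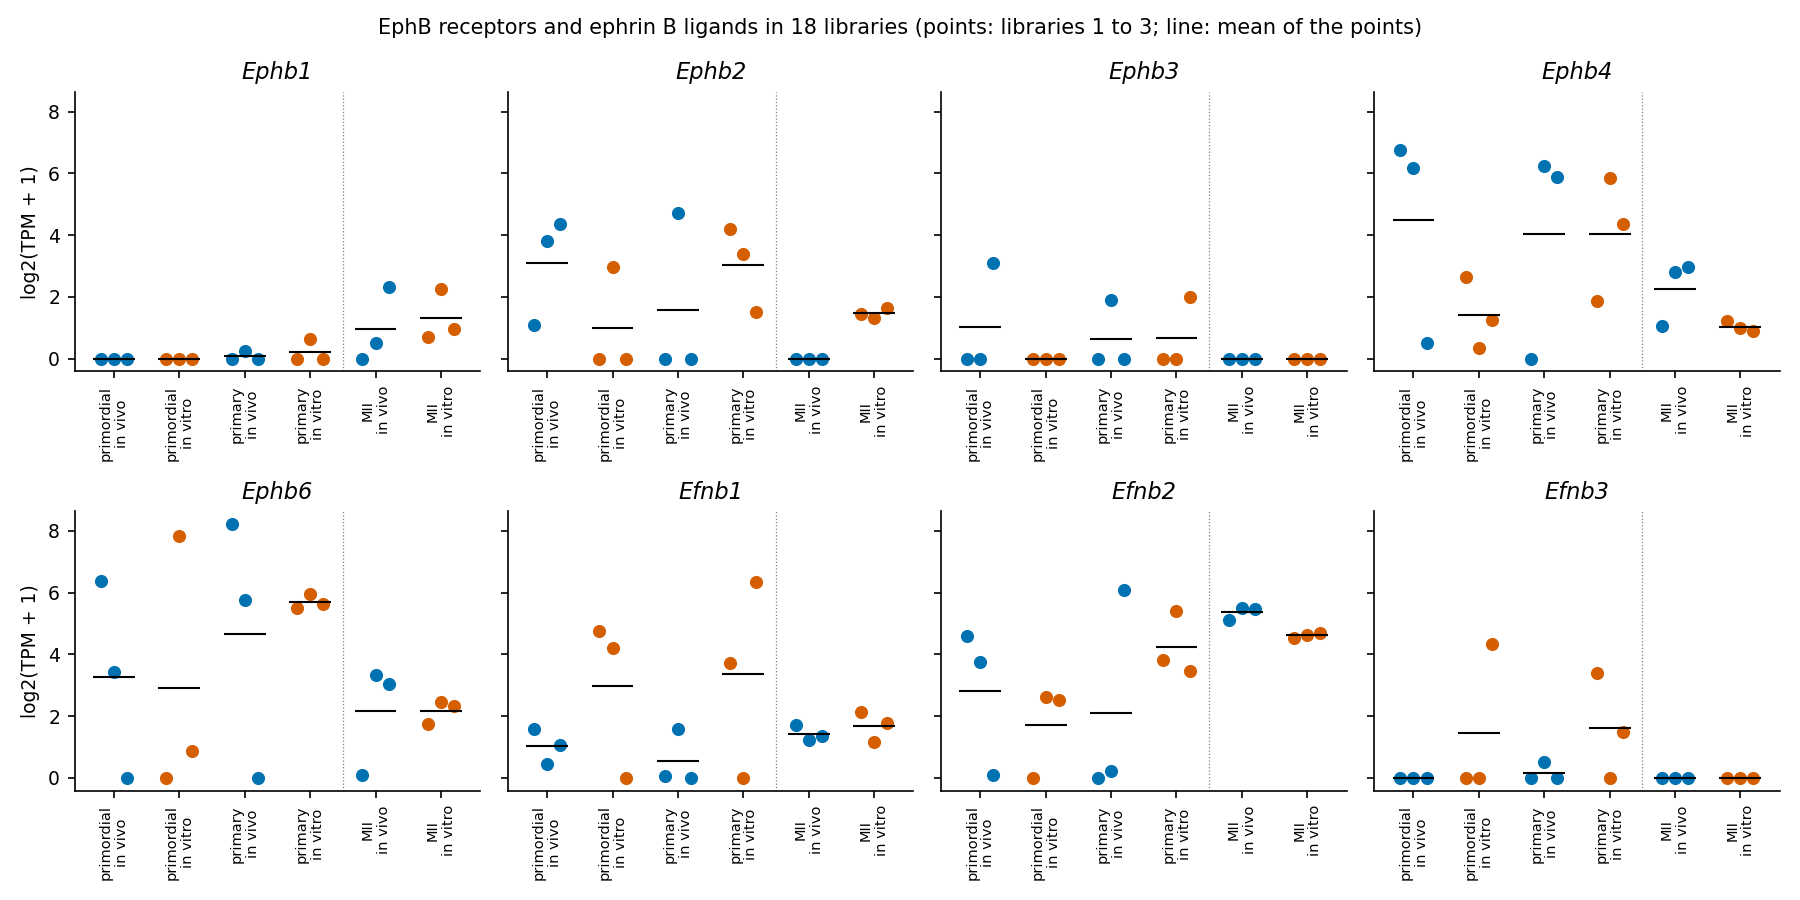
Level of each member in each library as log2(TPM + 1), with *in vivo* libraries in blue, *in vitro* libraries in orange, and a line at the mean of the 3 points. The dotted line parts LCM libraries (left) from MII libraries (right). In MII oocytes *Ephb2* was at 0 TPM in 3 *in vivo* libraries and between 1.49 and 2.12 TPM in 3 *in vitro* libraries, whereas in LCM oocytes its groups overlapped.

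*Ephb4*, the receptor of veins, was the most widely found receptor, over 3 reads in 11 of 12 LCM and all 6 MII libraries. Its gene overlaps *Zan* on the opposite strand, and since the strand setting of the counting is not given, reads of both genes cannot be told apart. In MII oocytes it had 18, 82 and 106 reads *in vivo* and 26, 16 and 13 *in vitro*. *In vivo* library 1 lay within the *in vitro* range, so the groups overlapped. The mean was 7.64 ± 4.78 CPM *in vivo* and 2.0 ± 0.88 CPM *in vitro* (SD, n = 3 each), and the log2 fold change was -1.93 (SE 0.82, adjusted p = 0.459, edgeR quasi-likelihood test, Benjamini-Hochberg), so that it did not pass the threshold.

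In LCM oocytes *Ephb4* had 3453, 2314 and 14 reads in primordial oocytes *in vivo* and 114, 11 and 42 *in vitro*. The third *in vivo* library lay inside the *in vitro* range. The log2 fold change was -4.46 (SE 3.25, adjusted p = 0.562). Primary oocytes had 0, 2527 and 1375 *Ephb4* reads *in vivo* and 85, 1984 and 736 *in vitro*, with overlapping groups. Primary against primordial oocytes *in vitro* gave a log2 fold change of 3.39 (SE 3.09, adjusted p = 0.773).

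*Ephb6* encodes a family member without kinase activity. In MII oocytes it had 1, 102 and 92 reads *in vivo* and 38, 59 and 50 *in vitro*. The *in vitro* libraries lay between the *in vivo* libraries, and the log2 fold change was -0.49 (SE 0.97, adjusted p = 0.914). In LCM oocytes the reads of *Ephb6* were concentrated in few libraries. Primordial oocytes had 2136, 263 and 0 reads *in vivo* and 0, 7264 and 20 *in vitro*, so that 1 library held 99.6% of the summed *in vitro* level. Primary oocytes had 7841, 1472 and 0 reads *in vivo* and 1158, 1760 and 1468 *in vitro*, and the *in vitro* libraries were the closest to each other of any *Ephb6* group from LCM.

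*Ephb1*, whose gene spans 9 other annotated genes on both strands, had 0, 9 and 94 reads in MII oocytes *in vivo* and 19, 93 and 22 *in vitro*. The groups overlapped, and the log2 fold change was 0.32 (SE 1.24, adjusted p = 0.962). In LCM oocytes it was at 0 reads in 10 of 12 libraries, with 9 reads in 1 primary library *in vivo* and 30 in 1 primary library *in vitro*.

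*Ephb3* had 0 reads in all 6 MII libraries. In LCM oocytes it was found in 3 of 12 libraries, with 348 reads in 1 primordial library *in vivo*, 124 in 1 primary library *in vivo* and 151 in 1 primary library *in vitro*. Each of these groups rested on 1 library. A level under 0.284 to 0.360 CPM could not be detected in the MII libraries at this depth.

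Among the ligands, *Efnb2* was the most abundant member in MII oocytes. It had 827, 908 and 1013 reads *in vivo* and 636, 578 and 560 *in vitro*, and every *in vitro* library was below every *in vivo* library. This gave 98.9, 109 and 104 CPM *in vivo* and 73.8, 54.6 and 62.8 CPM *in vitro*. The mean was 104 ± 5.06 CPM against 63.7 ± 9.59 CPM (SD, n = 3 each), a level 1.63-fold higher *in vivo*. The log2 fold change was -0.71 (SE 0.32, unadjusted p = 0.0443, adjusted p = 0.480, edgeR quasi-likelihood test, Benjamini-Hochberg), and it did not pass the threshold over all genes. Of all genes tested, 6.81% were lower *in vitro* without overlap, so that such a pattern was common. The *Efnb2* gene overlaps 3 other annotated genes on the same strand, and their part in its reads was not tested.

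In LCM oocytes *Efnb2* had 1086, 607 and 3 reads in primordial oocytes *in vivo* and 0, 297 and 207 *in vitro*. Primary oocytes had 0, 8 and 2339 reads *in vivo* and 622, 2145 and 552 *in vitro*. Each *in vivo* group thus held a library at or under 3 reads. Within the *in vitro* group, all primary libraries were above all primordial libraries, as were 9.87% of the genes tested. The mean there was 43.3 ± 42.7 CPM in primary and 7.0 ± 6.08 CPM in primordial oocytes (SD, n = 3 each), and the adjusted p was 0.903 in the edgeR quasi-likelihood test after Benjamini-Hochberg adjustment.

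*Efnb1*, an X-linked ligand, was found in all 6 MII libraries, with 28, 14 and 18 reads *in vivo* and 49, 15 and 27 *in vitro*. These groups overlapped, and the log2 fold change was 0.55 (SE 0.93, adjusted p = 0.894). In primordial oocytes it had 48, 9 and 28 reads *in vivo* and 423, 517 and 0 *in vitro*, and in primary oocytes 1, 51 and 0 *in vivo* and 289, 0 and 2234 *in vitro*. In each *in vitro* group of LCM oocytes 2 libraries were above all *in vivo* libraries and 1 had no reads, so the groups overlapped. How many of all genes had such a pattern was not counted. The log2 fold changes were 3.68 (SE 3.5, adjusted p = 0.718) at the primordial and 5.21 (SE 3.76, adjusted p = 0.681) at the primary stage. The latter was 9.58 without *in vivo* library 2, which held 51 reads, and 2.73 without *in vitro* library 3.

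*Efnb3* had 0 reads in all 6 MII libraries and in 8 of 12 LCM libraries. It had 397 reads in 1 primordial library *in vitro* and none in the other 5 primordial libraries. In primary oocytes it had 0, 10 and 0 reads *in vivo* and 209, 0 and 46 *in vitro*, and the log2 fold change was 4.28 (SE 3.51, adjusted p = 0.762). It was 8.98 without *in vivo* library 2 and 2.35 without *in vitro* library 1. The groups overlapped at 0 reads.

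**Figure D2:**
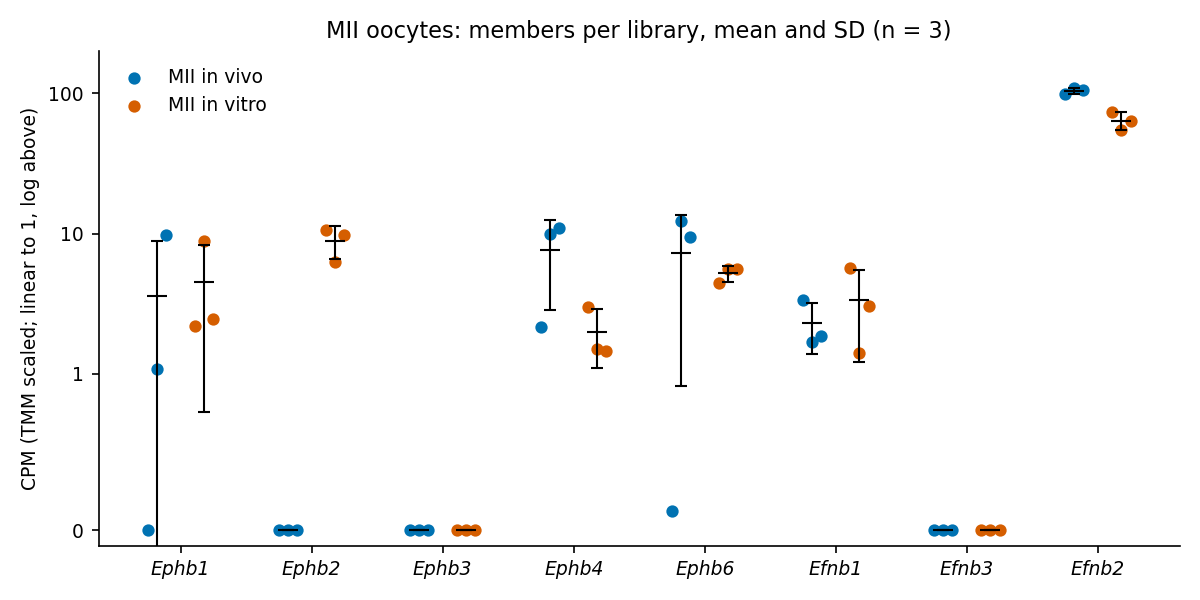
CPM of each member in the 6 MII libraries (points), with mean and SD (bars, n = 3), on an axis that is linear up to 1 and logarithmic above. *Efnb2* lay between 98.9 and 109 CPM *in vivo* and between 54.6 and 73.8 CPM *in vitro*, *Ephb2* was at 0 *in vivo*, and *Ephb3* and *Efnb3* were at 0 in both groups.

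Ordered by mean TPM, *Efnb2* came first in MII oocytes, at 40.7 ± 5.84 TPM *in vivo* and 23.7 ± 1.57 TPM *in vitro* (SD, n = 3 each). It was followed by *Ephb6*, at 5.45 ± 4.75 TPM and 3.63 ± 1.10 TPM. In both groups every library had more *Efnb2* than any library had *Ephb6*. *In vivo*, *Ephb6*, *Ephb4*, *Efnb1* and *Ephb1* came next and neighbours in this order overlapped. *In vitro* the order was *Ephb6*, *Efnb1*, *Ephb1*, *Ephb2* and *Ephb4*. In it *Ephb2* lay above *Ephb4* (1.06 ± 0.24 TPM) in all libraries and the other neighbours overlapped. The *Ephb2* values here are those that chose the family, so its place in the order is a description only. *Efnb2* made up 77.5 ± 11.6% of the summed TPM of the family *in vivo* and 69.1 ± 2.07% *in vitro* (SD, n = 3 each). The groups overlapped, with 69.2 to 90.8% *in vivo* and 66.8 to 70.7% *in vitro*. The sum includes *Ephb2*, whose MII reads chose the family and which made up 0% and 5.2% of it. Part of the difference between the shares is thus built in by that choice.

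In LCM oocytes the order was different, with *Ephb4* first in primordial oocytes *in vivo* (59.8 ± 54.7 TPM) and *Ephb6* first in the other groups. Mean *Ephb6* levels were 75.6 ± 130 TPM in primordial oocytes *in vitro*, 118 ± 159 TPM in primary oocytes *in vivo* and 51.5 ± 9.04 TPM in primary oocytes *in vitro* (SD, n = 3 each). The first 5 members of each order overlapped with their neighbours. The summed TPM of the 8 members ranged from 26.3 to 299 over the LCM libraries and from 31.4 to 63.1 over the MII libraries.

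Between libraries of the same LCM group the members came and went. Among the 32 combinations of a member and an LCM group, 23 had at least 100 reads in some library, and in 16 of these another library of the same group had 3 reads or fewer. In MII oocytes this applied to 1 of 4 such combinations, *Ephb6* *in vivo*. A cut of 100 reads is a higher level in the smaller MII libraries. The share over all genes was not counted, so these numbers describe the members and are no trait of the family. The number of members over the floor moved with the number of genes found. The LCM library with the fewest genes, 4842, held 1 member, and those with 10283 and 11710 genes held 8 and 7. In MII oocytes, with *Ephb2* left out because its reads chose the family, the *in vivo* libraries held 3, 5 and 5 of the other 7 members and the *in vitro* libraries 5 each, so the groups overlapped. The parts of tissue fixation and of gene recovery in the comparisons were not tested.

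**Figure D3:**
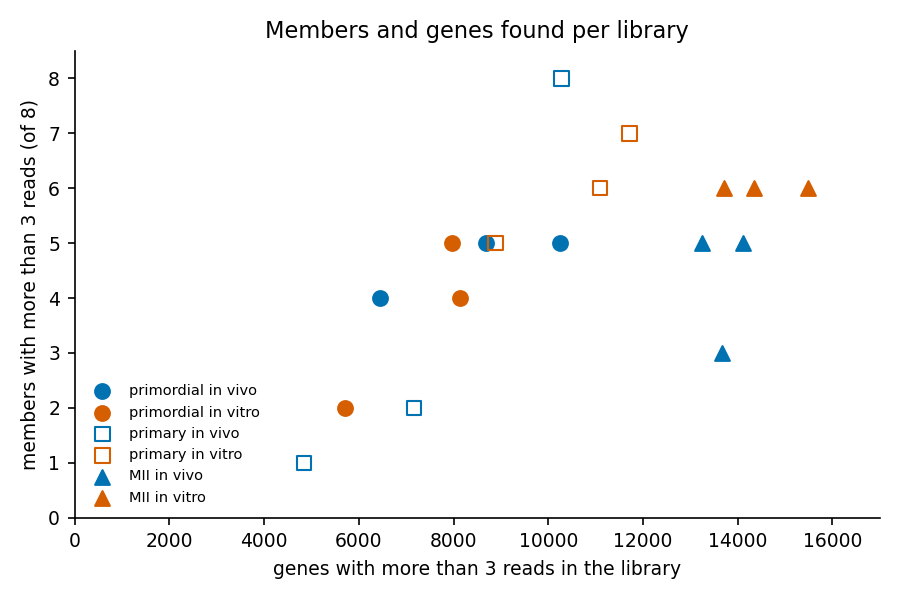
Number of members with more than 3 reads (of 8) against the number of genes with more than 3 reads, one point per library, with *in vivo* libraries in blue and *in vitro* libraries in orange. LCM libraries spread from 1 member at 4842 genes to 8 members at 10283 genes, and MII libraries lay at 3 to 6 members (*Ephb2*, whose MII reads chose the family, included) and 13238 to 15488 genes.

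Counted over the family, no member was called (adjusted p under 0.05 and a fold of at least 2, edgeR's quasi-likelihood test) in any LCM comparison. For culture in primordial oocytes 0 of 8 members were called against 0.0326% of all genes tested, with 2 at an unadjusted p under 0.05 (*Ephb3* and *Efnb3*). Both had reads in 1 of 6 libraries. DESeq2 called 1 (*Efnb3*) of the 6 members it gave an adjusted p, against 8.55% of the 8993 genes it gave one. The DESeq2 shares below are likewise of the genes that it gave an adjusted p. For culture in primary oocytes 0 of 8 were called against 0% of all genes, with 0 at an unadjusted p under 0.05 and 0 of 6 by DESeq2 against 2.58%.

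For primary against primordial oocytes *in vivo*, 0 of 8 members were called against 0.0522% of all genes, with 0 at an unadjusted p under 0.05. DESeq2 called 1 of 6 against 6.16% of the genes it gave an adjusted p. This was again *Efnb3*, which had 10 reads in 1 of these 6 libraries. *In vitro*, 0 of 8 were called against 0% of all genes, with 1 (*Ephb3*) at an unadjusted p under 0.05 and 0 of 6 by DESeq2 against 4.95%. For the difference between the culture effects of both stages, 0 of 8 were called against 0.104% of all genes, with 1 (*Ephb3*) at an unadjusted p under 0.05, and DESeq2 called 1 of 6 (*Efnb3*) against 6.07%. In MII oocytes 0 of the 5 members tested other than *Ephb2* were called, against 0.35% of all genes, with 2 (*Ephb4* and *Efnb2*) at an unadjusted p under 0.05 and 0 of 5 by DESeq2 against 2.53%. Over all genes, 9.66% to 11.7% had an unadjusted p under 0.05 in these comparisons.

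Fitted values of the members lay on both sides of 0 in each comparison of groups. Members that had no reads in 1 group were set to their bound. Those at or under the floor in both groups, or with a bound under 1-fold, were left out. The median log2 fold change of culture was then -1.72 over 7 members in primordial oocytes (3 higher, 4 lower). The median of the fitted values there was -0.86 over 8 members, against 0 for the fitted values of all genes. In primary oocytes it was 0.01 over 8 members (4 higher, 4 lower), against 0.44 over all genes. In MII oocytes it was -0.49 over the 5 members other than *Ephb2* (2 higher, 3 lower), against 0.04 over all genes. For primary against primordial oocytes it was -0.41 over 7 members *in vivo* (3 higher, 4 lower), where the median of the fitted values was 0.23, and 1.62 over 8 members *in vitro* (6 higher, 2 lower), where the fitted median was 2.2. Over all genes the fitted medians were 0 and 0.44. The member left out *in vivo* was *Ephb1*, with 9 reads in 1 primary library, a bound of 0.91-fold and a fitted value of 4.56.

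**Figure D4:**
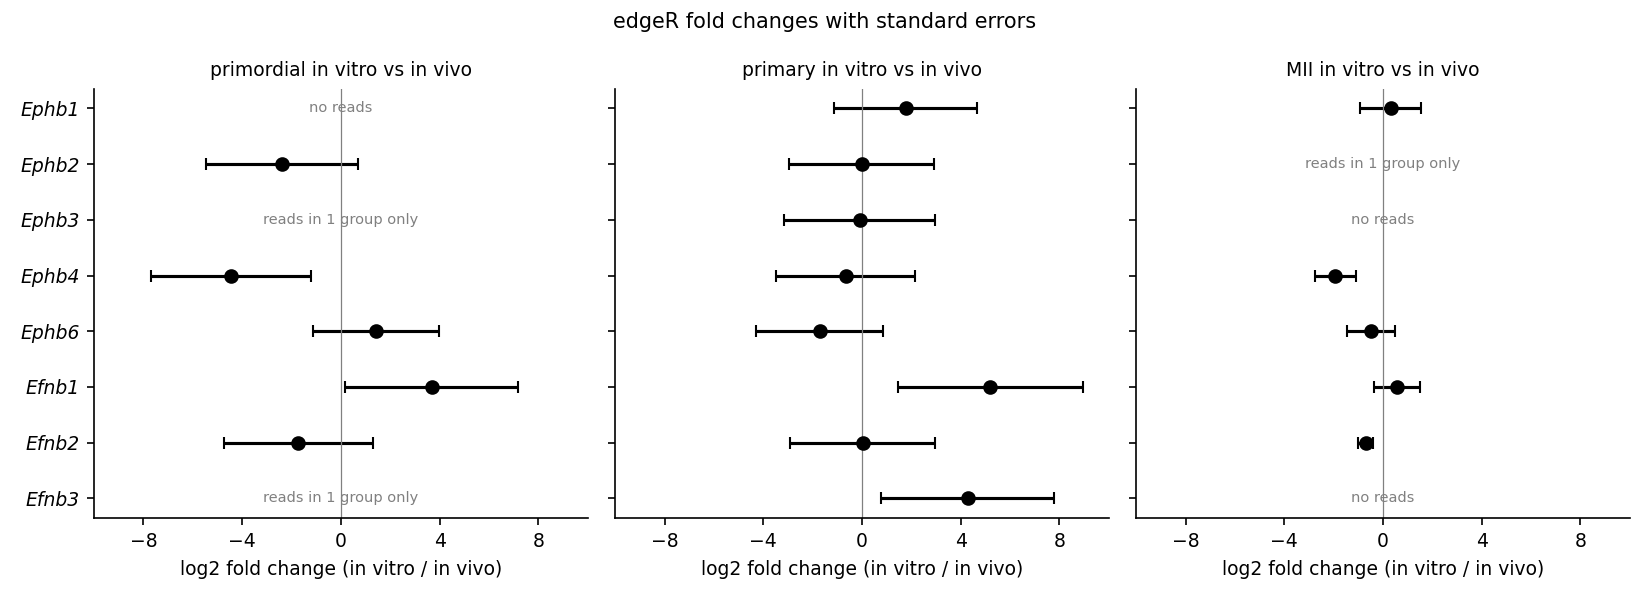
Log2 fold change of *in vitro* against *in vivo* for each member with reads in both groups, with its standard error, in primordial, primary and MII oocytes. Standard errors were 2.55 to 3.76 in LCM oocytes and 0.32 to 1.24 in MII oocytes, and no plotted value passed the threshold.

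The EphA receptors and ephrin A ligands, the sister family, gave 0 called genes of 12 tested in each of the 6 comparisons by edgeR's quasi-likelihood test, with 2 to 6 at an unadjusted p under 0.05. Over all genes, 0% to 0.35% were called and 9.66% to 11.7% had an unadjusted p under 0.05. In MII oocytes the most abundant members of the sister family by CPM were *Epha4*, *Efna5* and *Efna1*. *Epha4*, a receptor that binds ephrins of both classes, had 600, 923 and 1080 reads *in vivo* and 1138, 2152 and 1834 *in vitro*, and its log2 fold change was 0.88 (SE 0.34, adjusted p = 0.424). *Efna5* and *Efna1* gave log2 fold changes of 0.13 (SE 0.33) and -0.45 (SE 0.47).

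Of 41 genes whose products act with EphB receptors or ephrin B ligands (such as adaptors, kinases, PDZ proteins and proteases), 39 were tested in LCM and 37 in MII oocytes. None was called in any of the 6 comparisons by edgeR's quasi-likelihood test, with 2 to 4 at an unadjusted p under 0.05. Over all genes these shares were 0% to 0.35% and 9.66% to 11.7%. The most abundant by CPM in MII oocytes were *Stat3*, *Rac1* and *Tiam1*, with log2 fold changes of -0.18 (SE 0.37), 0.16 (SE 0.46) and 0.03 (SE 0.37). Of these, *Rac1* encodes a small GTPase that remodels actin, and *Tiam1* encodes an exchange factor that activates it. The median log2 fold change over the 37 genes was -0.25, with 12 of them above 0, against a median of 0.04 over all genes. For culture in LCM oocytes the median over the 39 genes was 0 at the primordial and 0.11 at the primary stage, against 0 and 0.44 over all genes. Between stages it was 0.07 *in vivo* and 0.22 *in vitro*, against 0 and 0.44. For the difference between culture effects it was -0.27, against 0.91.

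Among the marker lists, 1 gene was called. *Ddx4*, an RNA helicase of germ cells on the list of 14 oocyte markers, rose in MII oocytes *in vitro*, with 373, 120 and 244 reads *in vivo* and 2769, 3906 and 2661 *in vitro* (log2 fold change 3.56, SE 0.43, adjusted p = 0.00206, edgeR quasi-likelihood test, Benjamini-Hochberg). No gene of the lists for granulosa or cumulus, theca or stroma, endothelium, immune cells and epithelium was called in any of the 6 comparisons. In MII oocytes 2 of 8 granulosa or cumulus markers tested, 1 of 5 for theca or stroma, 0 of 6 for endothelium, 0 of 3 for immune cells and 1 of 3 for epithelium had an unadjusted p under 0.05. Over all genes, 10.2% did in that comparison and 0.35% were called.

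Over all 18 libraries, the genes whose log2(CPM + 1) followed *Ephb2* most closely among 20648 genes were *Zfp292* (Pearson r = 0.91), *Adgrl3* (0.88), *Hars* (0.88), *Pigu* (0.87) and *Spcs1* (0.87). These correlations describe libraries of 2 preparations with unequal gene recovery. *Adgrl3*, an adhesion receptor of synapses, also had 0 reads in all MII *in vivo* libraries, with 17, 12 and 8 reads *in vitro*. *Hars*, a histidyl-tRNA synthetase, had 65, 101 and 196 reads in MII oocytes *in vivo* and 477, 466 and 537 *in vitro*. The MII groups of *Adgrl3* and *Hars* did not overlap, and 9.37% of all genes tested were likewise higher *in vitro* without overlap. The MII groups of *Zfp292*, *Pigu* and *Spcs1* overlapped. *Zfp292* had 7, 0 and 9 reads *in vivo* and 43, 7 and 21 *in vitro*. *Pigu* had 196, 151 and 247 against 192, 308 and 266, and *Spcs1* had 52, 105 and 52 against 35, 144 and 94. The ranking included the MII values of *Ephb2* that chose the family, so a similar MII pattern in these genes is in part given by how they were picked. With log2(CPM + 0.1), 2 of the 5 remained among the first 5, and with rank correlation 3 did. The other members followed *Ephb2* less closely, from r = -0.19 for *Efnb2* to 0.51 for *Ephb3*.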

How the data were processed

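RNA-seq reads of 18 mouse oocyte libraries were analysed from the gene tables. The authors trimmed reads with Trim Galore 0.4.1, mapped them to mm10 with TopHat2, counted them per gene with featureCounts and deposited raw read counts. A second deposited table gives TPM values (counts per length, scaled to the library), used here to compare levels between genes. The strand setting and the treatment of reads with several mapping places are not given in the sources used here. LCM RNA was amplified before library preparation, and libraries carry no molecular identifiers.

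Counts were tested with edgeR 4.0.16 in R 4.3.3 (TMM normalization, quasi-likelihood test, Benjamini-Hochberg adjustment over all genes with at least 10 reads in total), in one fit of the 12 LCM libraries and one of the 6 MII libraries. A gene was called at an adjusted p under 0.05 and a fold of at least 2. Standard errors were taken from the fold change and its F statistic. Folds against a group without reads used 3 reads per library. The steps were tested on simulated data with a smaller spread between libraries than in either fit. That run does not show how well the tests find changes at the spread of the LCM libraries. Alternatives were DESeq2 1.42.0, other scaling and filters, no fold threshold, other sets of libraries in the fit, a replicate block, and leaving out each library.

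Samples were grouped by the title in the labels. Members and gene lists were chosen with earlier results of these data known. Named genes are all 8 members, the 5 genes most correlated with *Ephb2*, and from each list the called genes or the 3 most abundant; other named genes (*Inhba*, *Inha*, *Fshr*, *Amhr2*, *Foxl2*, *Col1a1*, *Pecam1*) and the choice of fold changes printed were made after their values were seen. Coordinates are from GENCODE release M21 on GRCm38 (the build of mm10), matched by gene identifier.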

Additional observations from a re-analysis of the deposited data

How the results depend on the processing

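With *Ephb2* in MII oocytes left aside, no member was called under any alternative run with edgeR. DESeq2 called 1 member for culture in primordial oocytes, 1 for primary against primordial oocytes *in vivo* and 1 for the difference between culture effects. Each time it was *Efnb3*, which had no reads in primordial oocytes *in vivo*. Of the genes it gave an adjusted p, DESeq2 called 8.55%, 6.16% and 6.07% there, and the cause was not tested. The share of *Efnb2* in the family, *Ephb2* included, was 77.5% *in vivo* and 69.1% *in vitro* from raw counts per kilobase as well. This is no check of the share. Both units divide the same counts by gene length, and scaling to the library leaves a share unchanged. Of 15 fold changes followed, 10 kept their direction. For *Ephb2* in primary oocytes the log2 fold change was 0.075 with library size alone, 8.95 with the replicate block, and -0.59 to 12.49 when libraries were left out. The replicate block gave -10.88 in primordial oocytes, 10.3 between stages *in vitro*, -9.53 between stages *in vivo* and 19.83 for the difference between culture effects. Each of these *Ephb2* comparisons holds a group with all its reads in 1 library. The values with the block therefore depend on the fit and are no measure of size. For *Ephb2* between stages *in vivo*, leaving out libraries gave -13.09 to 0.42. In MII oocytes it gave -0.62 to 3.03 for *Ephb1*, -1.06 to 0.11 for *Ephb6* and -0.047 to 0.93 for *Efnb1*, and the replicate block gave 0.33 for *Ephb6*. Over the alternatives the adjusted p ran from 0.113 to 1 for *Ephb4* and from 0.217 to 1 for *Efnb2* in MII oocytes.

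Replicate numbers did not pair the libraries (correlations of deviations -0.07 to 0.09). Over all genes, calls in MII oocytes were 60, and 263 without a filter on low counts, 85 with the replicate block, 370 of 14618 with DESeq2, 0 with all 18 libraries in one fit, and 11 (without *in vitro* library 3) to 378 (without *in vivo* library 1) when libraries were left out. Calls in LCM oocytes were 5 for culture in primordial oocytes, against 0 without a filter or with filterByExpr, 1 with the block and 769 with DESeq2. For primary against primordial oocytes *in vivo* 8 became 0 under these filters and the block, and 539 with DESeq2. DESeq2 called 226 for culture in primary oocytes and 422 for the stages *in vitro*, where edgeR as set out above called 0. For culture in primary oocytes edgeR called 5 with those 2 groups alone, 1 with DESeq2's size factors and 0 or 1 when libraries were left out. In the other LCM comparisons leaving out libraries gave 0 to 3 calls for culture in primordial oocytes, 0 to 11 for the stages *in vivo*, 0 for the stages *in vitro* and 0 to 20 for the difference between culture effects. The difference between culture effects went from 16 to 1 without a filter, 0 with filterByExpr or the block and 546 with DESeq2. The biological coefficient of variation was 2.02 in LCM and 0.726 in MII oocytes.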
